A study of Homo sapiens with 4 samples.

Results

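The 10 genes described here encode enzymes and regulators of sphingolipid synthesis, from the first condensation to the formation of sphingomyelin. They were chosen by name, with earlier results of these data known. The names are SPTLC1, SPTLC2, SPTSSA, ORMDL3, KDSR, CERS2, CERS5, CERS6, DEGS1 and SGMS1. All 10 were found among the 23622 genes of the deposited table. The 4 RNA-seq libraries came from MV4-11, an acute myeloid leukemia (AML) cell line of human origin with a rearranged KMT2A gene. The 2 sh-NC libraries, labelled WT and without treatment, are named in the paper for a control hairpin, and the 2 sh-IRF1 libraries, also labelled WT, carried a knockdown of the transcription factor IRF1. The study delivered its hairpins by lentivirus with puromycin selection. The hairpin present in each sh-IRF1 library is not given in the sources used here, and while the methods speak in general of independently repeated experiments, neither they nor the labels say that these libraries came from separate cultures, so p-values measure only the spread between these libraries.

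Sphingolipid synthesis starts in the endoplasmic reticulum, where serine palmitoyltransferase joins serine to a fatty acyl-CoA. The product is reduced, a ceramide synthase adds a second acyl chain, and a desaturase inserts the double bond that makes ceramide. Ceramide is then carried to the Golgi and converted to sphingomyelin or glycosphingolipids, and in leukemia cells ceramide and sphingosine 1-phosphate are known for opposed effects on survival.

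The values are reads per gene divided by 1 size factor per library, called normalized counts here, and the reads behind them summed to between 17635908 and 18695337 per library. Differences were tested with limma on log2(normalized count + 1) over 14120 genes, those reaching a normalized count of 10 in 2 or more libraries, with Benjamini-Hochberg adjustment, and a gene was called at an adjusted p under 0.05. Adding 1 before the logarithm tends to make the change of a gene with a low count smaller than without that addition. IRF1 itself had normalized counts of 785 and 738 in the sh-NC libraries and 430 and 432 in the sh-IRF1 libraries. The sh-IRF1 mean was 56.6% of the sh-NC mean (log2 fold change -0.82, limma adjusted p = 1.69e-10), while genes on the other strand, IRF1-AS1 among them, cover 22.9% of its exonic bases.

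All 9 markers fixed for a myeloid leukemia line had reads in every library. Their summed normalized count lay between 32142 and 32277 in sh-NC and between 28195 and 28336 in sh-IRF1. Of the 9, 2 were called higher, LYZ (lysozyme, log2 fold change 0.85) and the transcription factor gene SPI1 (0.17). The 4 called lower were MPO (granule peroxidase, -1.42), PTPRC (-0.48), FLT3 (-0.46) and CSF1R (-0.19), and CD33, HOXA9 and MEIS1 were not called. FLT3 had normalized counts of 17391 and 17412 in sh-NC and 12745 and 12634 in sh-IRF1, a larger difference than that of the sum. Of 11 markers of other cell types, the 3 with values summed to between 86.2 and 116 in sh-NC and between 240 and 289 in sh-IRF1, and COL1A1 was at 0 in 1 library. The B-cell gene CD79A, with 50.3 and 43.1 against 190 and 250, gave most of that difference. In bulk libraries fewer cells of a type and less RNA per cell cannot be told apart, and the part of these markers in the results below was not tested.

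The synthesis genes changed little with IRF1 knockdown. SPTSSA, the small subunit of serine palmitoyltransferase, and DEGS1, the ceramide desaturase, fell to 75.3% and 85.8% of the control. CERS6, a ceramide synthase, rose to 126% and SPTLC2, a catalytic subunit of serine palmitoyltransferase, to 107%. The other 6 genes were not called. All 10 genes passed the filter on low values, and 4 of them (40%) were called by limma, against 42.2% of all genes tested. The 2 higher calls stand beside a background of 20.3% and the 2 lower calls beside 21.9%. Because the 10 genes were chosen with earlier results of these data known, these counts only describe them.

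In limma, edgeR and DESeq2, none of the 10 genes had a change of more than 0.5 on the log2 scale, a size reached with an adjusted p under 0.05 by 15.8% of all genes in limma. All 4 genes with an unadjusted p under 0.05 were also past the adjusted threshold. The median absolute log2 fold change was 0.11 over the 10 genes and 0.26 over all genes tested, and the medians with sign were -0.03 and -0.0019. The 10 genes had mean normalized counts from 128 to 4929, and all genes tested were not matched to them on level. For each of the 6 genes not called, the 95% interval of the change lay within 0.5 of 0 on the log2 scale. The groups did not overlap for 7 of the 10 genes (70%), close to the 69.2% of all genes. Count tests on the recovered reads called 4 of the 10 in edgeR, where the background was 42.7%, and 3 in DESeq2, where it was 34.0%.

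**Figure D1:**
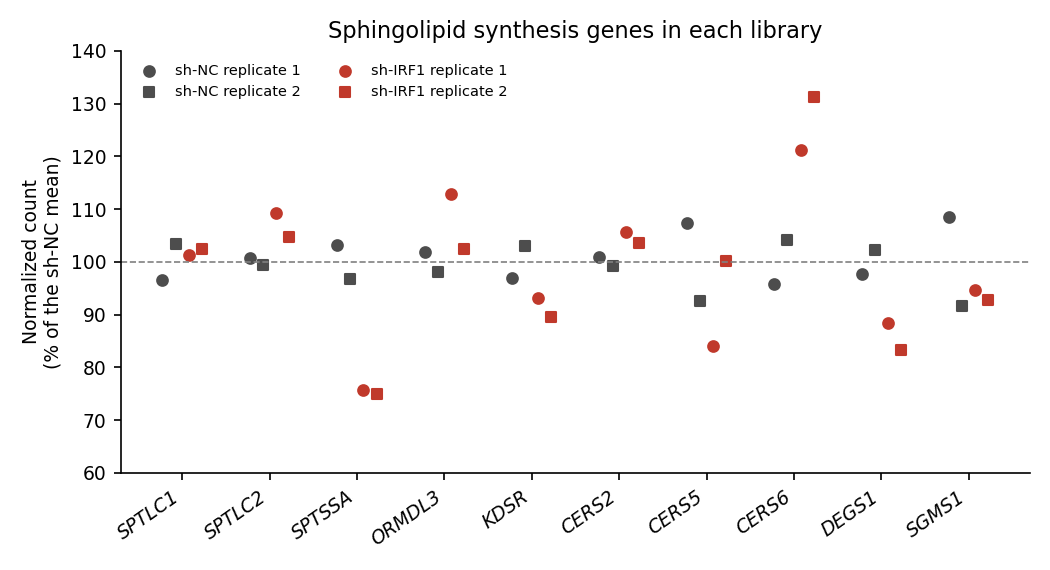
Normalized count of each of the 10 genes in each library, as a percentage of the mean of the sh-NC libraries (vertical axis from 60 to 140%). Grey points are sh-NC, red points sh-IRF1, circles replicate 1 and squares replicate 2. SPTSSA and DEGS1 lie below, and CERS6 and SPTLC2 above, both control libraries in both sh-IRF1 libraries. So do KDSR (below) and ORMDL3 and CERS2 (above), which were not called.

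The first enzyme was measured through SPTLC1, SPTLC2 and SPTSSA. SPTSSA, which activates the complex and shapes its acyl-CoA preference, had normalized counts of 917 and 860 in sh-NC and 672 and 666 in sh-IRF1. Both knockdown libraries lay below both controls by more than the controls differed from each other. The log2 fold change was -0.41 ± 0.08 (SE, n = 2 per group, 95% interval -0.57 to -0.25, limma adjusted p = 2.85e-05). The gene lies on chromosome 14 (GRCh38, 34432788 to 34462240, minus strand) and shares no exonic base with another annotated gene.

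SPTLC2, which carries the pyridoxal phosphate cofactor of the enzyme, was the most abundant of the 10 by normalized count, at 4797 and 4732 in sh-NC and 5205 and 4984 in sh-IRF1. The groups did not overlap, but the gap between them was smaller than the difference between the sh-IRF1 libraries. Its log2 fold change was 0.10 ± 0.04 (SE, 95% interval 0.02 to 0.17, limma adjusted p = 0.033). The call was lost in DESeq2 (adjusted p = 0.0646), without sh-NC replicate 2 (limma adjusted p = 0.106) and without sh-IRF1 replicate 1 (limma adjusted p = 0.322).

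SPTLC1, the partner subunit without the cofactor, had normalized counts of 1174 and 1255 in sh-NC and 1229 and 1243 in sh-IRF1. Both knockdown values fell between the control values, and the log2 fold change was 0.03 ± 0.06 (SE, 95% interval -0.10 to 0.15, limma adjusted p = 0.768). Per kilobase of exon, SPTSSA made up 40.7% and 39.1% of the reads of SPTLC1, SPTLC2, SPTLC3 and SPTSSA in the sh-NC libraries and 31.9% and 32.4% in the sh-IRF1 libraries. The 2 groups did not overlap, a difference of -7.79 percentage points for which an exact two-sided permutation test gave p = 0.333, the smallest that 2 libraries against 2 allow. With the length of the canonical transcript, the mean SPTSSA share was 24.5% in sh-NC and 18.9% in sh-IRF1, a difference of -5.58 points. SPTLC3, a catalytic subunit with other acyl-CoA preferences, had at most 2 reads in any library.

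The reference promoter of SPTSSA is shown because SPTSSA fell most among the 10 genes, with those of CERS6, which rose most, and DEGS1, the other gene that fell. Each is the stretch of 250 bases before a RefSeq transcription start on GRCh38.p14, written 5′ to 3′ on the strand of the gene. Capitals mark the CCAAT box, also where it is read from the other strand as ATTGG, and the GC box, whose letters are GGGCGG on one strand or CCGCCC on the other. Where matches adjoin or overlap they form 1 run of capitals.
SPTSSA, chr14:34462241-34462490, minus strand: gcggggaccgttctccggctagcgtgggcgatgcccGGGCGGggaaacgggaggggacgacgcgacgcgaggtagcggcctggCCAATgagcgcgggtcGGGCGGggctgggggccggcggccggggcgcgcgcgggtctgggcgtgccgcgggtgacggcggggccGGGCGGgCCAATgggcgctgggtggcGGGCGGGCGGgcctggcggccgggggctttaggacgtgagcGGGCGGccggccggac
CERS6, chr2:168456022-168456271, plus strand: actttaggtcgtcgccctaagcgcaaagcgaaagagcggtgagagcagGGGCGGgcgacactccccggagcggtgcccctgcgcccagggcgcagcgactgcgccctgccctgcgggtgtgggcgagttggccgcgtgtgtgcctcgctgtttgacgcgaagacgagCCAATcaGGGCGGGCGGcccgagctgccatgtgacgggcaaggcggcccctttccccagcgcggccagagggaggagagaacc
DEGS1, first of 2 starts, chr1:224182990-224183239, plus strand: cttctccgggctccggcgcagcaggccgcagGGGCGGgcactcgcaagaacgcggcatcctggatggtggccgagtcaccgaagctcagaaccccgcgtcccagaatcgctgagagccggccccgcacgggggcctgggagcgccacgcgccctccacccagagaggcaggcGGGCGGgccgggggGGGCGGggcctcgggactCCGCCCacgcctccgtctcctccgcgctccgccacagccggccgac

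SPTSSA had 2 CCAAT boxes, 167 and 76 bases before the start, and 6 GC boxes in a window of 82% G and C. CERS6 had 1 CCAAT box at 83 bases before the start and 3 GC boxes, while the DEGS1 window shown had 4 GC boxes and no CCAAT. RefSeq promoters were matched for 9 of the 10 genes, with 12 windows in all. The CCAAT box was found in 3 of the 12 windows (those of SPTLC2, SPTSSA and CERS6) and in 32.0% of all 35093 promoter windows of this length. The GC box was found in 11 of the 12 windows, at least 1 for each of the 9 genes, and in 42.6% of all windows. These 5- and 6-letter motifs were chosen after the results were known.

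The interferon response element core GAAANNGAA, the kind of sequence that IRF proteins bind, is found in 6.88% of all promoter windows of this length. None of the 12 windows of the synthesis genes held it on either strand. The E-box CACGTG, at 6.34% of all windows, and the sterol response element TCACNCCAC, at 0.883%, were also without a match in the 12 windows. These searches describe only the letters of 250 bases before each start.

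ORMDL proteins hold serine palmitoyltransferase in check when ceramide is plentiful. ORMDL3 had normalized counts of 534 and 515 in sh-NC and 592 and 537 in sh-IRF1, and the nearest values of the 2 groups were almost equal. The log2 fold change was 0.10 ± 0.09 (SE, 95% interval -0.08 to 0.29, limma adjusted p = 0.396). The other family members moved in opposite directions. ORMDL1 fell from 744 and 691 to 628 and 554 (log2 fold change -0.28, limma adjusted p = 0.00742).

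ORMDL2 rose from 132 and 176 to 233 and 231 (log2 fold change 0.60, limma adjusted p = 0.00185), although genes on the other strand cover 44% of its exonic bases. The calls of ORMDL1 and ORMDL2 were both lost without sh-NC replicate 1. Per kilobase of exon, ORMDL1 went from 49.2% and 46.0% of the family's reads in sh-NC to 39.1% and 37.6% in sh-IRF1, and ORMDL2 from 13.0% and 17.4% to 21.6% and 23.4%. ORMDL3 held 37.8% and 36.6%, then 39.3% and 38.9%. Groups did not overlap for any of the 3 shares, and the exact two-sided permutation test gave its smallest p, 0.333, for each.

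KDSR reduces the product of serine palmitoyltransferase to sphinganine. Its normalized counts were 750 and 796 in sh-NC and 719 and 692 in sh-IRF1, both knockdown values below both controls. The log2 fold change of -0.13 ± 0.08 (SE, 95% interval -0.29 to 0.03, limma adjusted p = 0.194) was not past the threshold.

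The ceramide synthases differ in the acyl chain they attach, with CERS2 known for very long chains and CERS5 and CERS6 for C16 chains. CERS6 had normalized counts of 1180 and 1282 in sh-NC and 1492 and 1614 in sh-IRF1. Both knockdown libraries lay above both controls, and the gap between the groups was wider than the spread within either. Its log2 fold change was 0.34 ± 0.06 (SE, 95% interval 0.21 to 0.46, limma adjusted p = 1.45e-05). CERS6 lies on chromosome 2 (GRCh38, 168456249 to 168775134, plus strand), and the antisense gene CERS6-AS1, which is not analysed here, covers 43.8% of its exonic bases. Whether the counting used strand is not given in the sources used here, so reads of the 2 genes cannot be told apart.

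CERS2 had normalized counts of 2388 and 2346 in sh-NC and 2502 and 2452 in sh-IRF1. The groups did not overlap, but the log2 fold change of 0.07 ± 0.05 (SE, 95% interval -0.03 to 0.16, limma adjusted p = 0.276) was not past the threshold. Genes on the other strand, SETDB1 among them, cover 37.2% of the exonic bases of CERS2. SETDB1 had a log2 fold change of -0.02 (limma adjusted p = 0.845). CERS5 had 806 and 695 in sh-NC and 632 and 752 in sh-IRF1. These groups overlapped, and the log2 fold change was -0.12 ± 0.09 (SE, 95% interval -0.30 to 0.06, limma adjusted p = 0.287).

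Per kilobase of exon, CERS6 made up 21.4% and 23.5% of ceramide synthase reads in the sh-NC libraries and 25.6% and 26.9% in the sh-IRF1 libraries. The mean share was 22.5% ± 1.53 (SD, n = 2) and 26.3% ± 0.94 (SD, n = 2), a difference of 3.81 percentage points (exact two-sided permutation p = 0.333, the smallest possible here). With the length of the canonical transcript in place of all exons, the shares were 12.1% and 14.5%, a difference of 2.45 points. CERS5 held 14.8% and 12.9% against 11.0% and 12.7%, and CERS2, at 63.8% and 63.5% against 63.3% and 60.4%, remained the most abundant. CERS1 had reads in 1 library only, at 3 reads, and CERS3 and CERS4 are not analysed here.

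**Figure D2:**
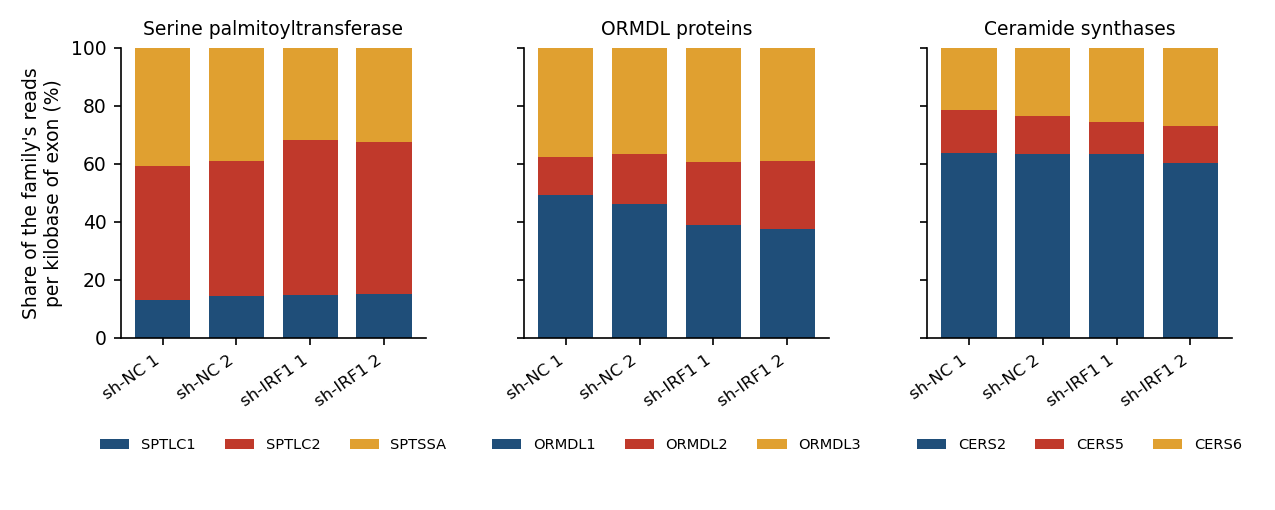
Share of each gene (%) in the reads per kilobase of exon of its family, in each of the 4 libraries, with 1 stacked bar per library. SPTSSA falls from 40.7% and 39.1% to 31.9% and 32.4%, ORMDL2 rises from 13.0% and 17.4% to 21.6% and 23.4%, and CERS6 rises from 21.4% and 23.5% to 25.6% and 26.9%. SPTLC3 and CERS1, at most 0.0931% of a family, are not drawn.

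DEGS1 desaturates dihydroceramide to ceramide. Its normalized counts were 1399 and 1464 in sh-NC and 1264 and 1192 in sh-IRF1, so both knockdown libraries lay below both controls. The log2 fold change was -0.22 ± 0.06 (SE, 95% interval -0.35 to -0.10, limma adjusted p = 0.00296). Without sh-IRF1 replicate 2 it was -0.18 and the call was lost (limma adjusted p = 0.0794). DEGS1 lies on chromosome 1 (GRCh38, 224175756 to 224193441, plus strand) and shares no exonic base with another annotated gene.

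SGMS1 transfers phosphocholine to ceramide in the Golgi to make sphingomyelin and was the least abundant of the 10. Its normalized counts were 144 and 121 in sh-NC and 125 and 123 in sh-IRF1, and the groups overlapped. The log2 fold change was -0.09 ± 0.19 (SE, 95% interval -0.47 to 0.29, limma adjusted p = 0.740). This was the widest interval of the 10, and a change of any size within it remains possible. Genes on the other strand, the antisense gene SGMS1-AS1 among them, cover 5.56% of the exonic bases of SGMS1. SGMS1-AS1 had reads equal to 45.6% of those of SGMS1 and was not called (limma adjusted p = 0.771).

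**Figure D3:**
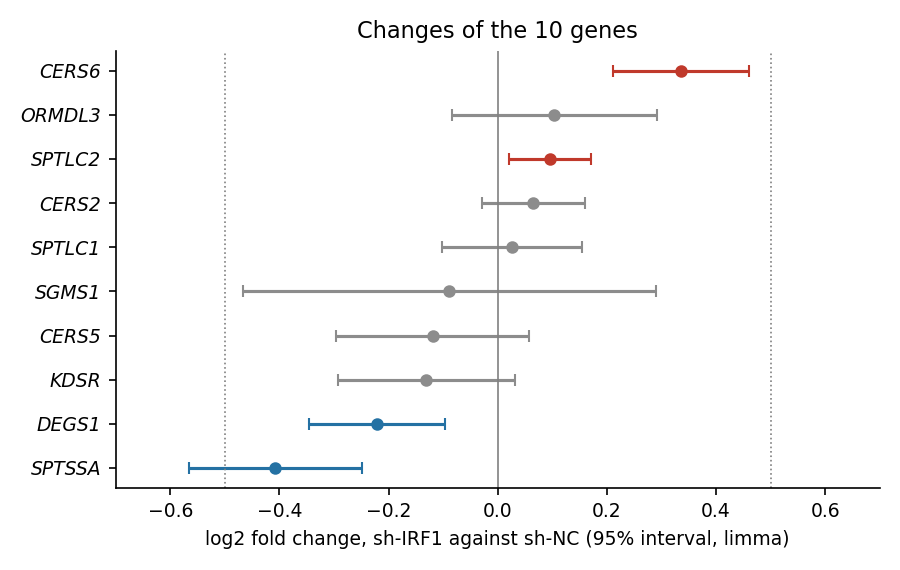
Change on the log2 scale with IRF1 knockdown (horizontal axis, sh-IRF1 minus sh-NC) for each of the 10 genes, with the 95% interval from limma. Red marks a gene called higher, blue a gene called lower and grey a gene not called, and dotted lines stand at 0.5 on either side of 0. CERS6 at 0.34 and SPTSSA at -0.41 are the outermost points, and no point reaches the dotted lines.

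Levels between genes were compared as RPKM, that is reads per kilobase of exon scaled to the total reads of the library. In sh-NC the order was DEGS1 (32.3), CERS2 (28.1), SPTLC2 (21.4), SPTSSA (18.4), CERS6 (9.92), ORMDL3 (7.72), SPTLC1 (6.33), CERS5 (6.13), KDSR (4.73) and SGMS1 (1.14). The libraries of neighbouring genes overlapped only for SPTLC1 and CERS5. In sh-IRF1 CERS2 (30.4) stood above DEGS1 (28.6), with no overlap between them, and the order of the other genes was as in sh-NC. Genes on the other strand cover 37.2% of the exonic bases of CERS2 and 43.8% of those of CERS6. With the use of strand not given, the levels of these 2 genes, and their shares above, carry that limit. The order also depended on the length used. With the canonical transcript, CERS2 led in both sh-NC (56.3) and sh-IRF1 (60.7), and in sh-NC SPTLC1 (24.1) stood above SPTSSA (18.4). At that length DEGS1 (38.9) stood above SPTLC2 (32.7) in sh-NC, and SPTLC2 (36.1) above DEGS1 (34.4) in sh-IRF1. The SPTSSA mean (14.3) in sh-IRF1 was then below those of CERS5 (15.7) and ORMDL3 (15.2).

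Genes with the pattern most like that of CERS6 over the 4 libraries were RNASET2, WIPF2 and MAN2A2, at Euclidean distances of 0.0248, 0.0272 and 0.0314 between centred log2 values. For SPTSSA they were PGAM1, ZNF12 and EIF4EBP1, at 0.0106, 0.0119 and 0.0184. Within a distance of 0.1 lay 186 genes for CERS6 and 314 for SPTSSA, so a likeness of this kind over 4 libraries was common.

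Outside the 10 genes, the list of other de novo synthesis genes had 10 names, of which 7 had values and 4 were tested. Of these, 2 rose and 1 fell, where limma called 20.3% of all genes higher and 21.9% lower, and the median log2 fold change was -0.09 beside -0.0019 over all genes. ORMDL2 and ORMDL1 are given above, and TECR, an enoyl-CoA reductase that also acts in sphingosine breakdown, was the other gene called higher. Without sh-NC replicate 1 none of the 4 was called, without sh-IRF1 replicate 1 there was 1 higher call, and without sh-IRF1 replicate 2 there were 1 higher and 0 lower.

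Genes that supply the substrates of the pathway were mostly lower. The list of these genes was chosen with earlier results of these data known, so its counts beside the shares of all genes only describe it. Of 18 tested of 19 listed, 12 fell, 1 rose and 5 were not called, beside 21.9% of all genes lower and 20.3% higher, and the median log2 fold change was -0.38. PSAT1, PHGDH and PSPH, the enzymes of serine synthesis, had log2 fold changes of -0.87, -0.68 and -0.75. FASN, fatty acid synthase, went from 28521 and 29104 to 16600 and 16790 (log2 fold change -0.79, limma adjusted p = 1.3e-29), and ACSL3, which forms acyl-CoA, had -0.76. ELOVL1, which elongates acyl-CoA to the very long chains that CERS2 uses, had -0.52, and it was singled out after its value was seen. SHMT1, which converts serine and glycine into each other, was the gene called higher (0.30), and that call was lost without sh-IRF1 replicate 2.

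Of 11 tested genes for ceramide transfer and conversion, 3 were called higher and 3 lower, counts near the shares of all genes (20.3% and 21.9%), and the median was 0.12. CERT1, which carries ceramide from the endoplasmic reticulum to the Golgi, had normalized counts of 880 and 883 in sh-NC and 581 and 592 in sh-IRF1. Replicates were almost equal, and the sh-IRF1 mean was 66.5% of the control (log2 fold change -0.59, limma adjusted p = 3.87e-08). The estimate for CERT1 was larger in size than that for any of the 10 synthesis genes, a difference that was not tested. ST3GAL5, which makes the ganglioside GM3, fell at low counts (61.5 and 88.3 to 33.8 and 44.04, log2 fold change -0.92), and B4GALT5, which makes lactosylceramide, rose (0.49).

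Genes of ceramide and sphingomyelin breakdown were either higher or not called. This list too was chosen with earlier results of these data known, so its counts only describe it. All 12 with values, of 14 listed, were tested, and 6 rose, 0 fell and 6 were not called, beside 20.3% of all genes higher and 21.9% lower, and the median was 0.29. The acid ceramidase gene ASAH1 had normalized counts of 1467 and 1403 in sh-NC and 4204 and 4170 in sh-IRF1, and the acid sphingomyelinase gene SMPD1 had 355 and 333 against 803 and 807. Both differences were many times the spread within a group. GBA2, a glucosylceramidase outside the lysosome (log2 fold change 0.58), and GLA, the lysosomal alpha-galactosidase (0.53), also rose by more than 0.5. In edgeR and DESeq2, as in limma, 0 of the 12 were called lower, and 1 of those not called, SMPD3, had a negative change with an unadjusted p under 0.05 (limma adjusted p = 0.0597).

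For sphingosine 1-phosphate, 9 of 14 listed genes were tested, and 2 were called higher and 2 lower, near the shares of all genes (20.3% and 21.9%), with a median of -0.02. The 2 kinases that make it differed in direction. SPHK1 had normalized counts of 406 and 352 in sh-NC and 192 and 185 in sh-IRF1 (49.6% of the control, limma adjusted p = 1.58e-08), whereas SPHK2 had 1186 and 1158 against 1805 and 1743 (151%, limma adjusted p = 6.48e-12). SPHK2 shares 22.3% of its exonic bases with genes on the other strand. ALDH3A2, which oxidizes the aldehyde left by breakdown, rose (0.61). The receptor gene S1PR5 fell (-1.48) from low normalized counts of 41.03 and 36.98 to 8.95 and 19.7, and the lower calls numbered 1 without sh-IRF1 replicate 1.

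**Figure D4:**
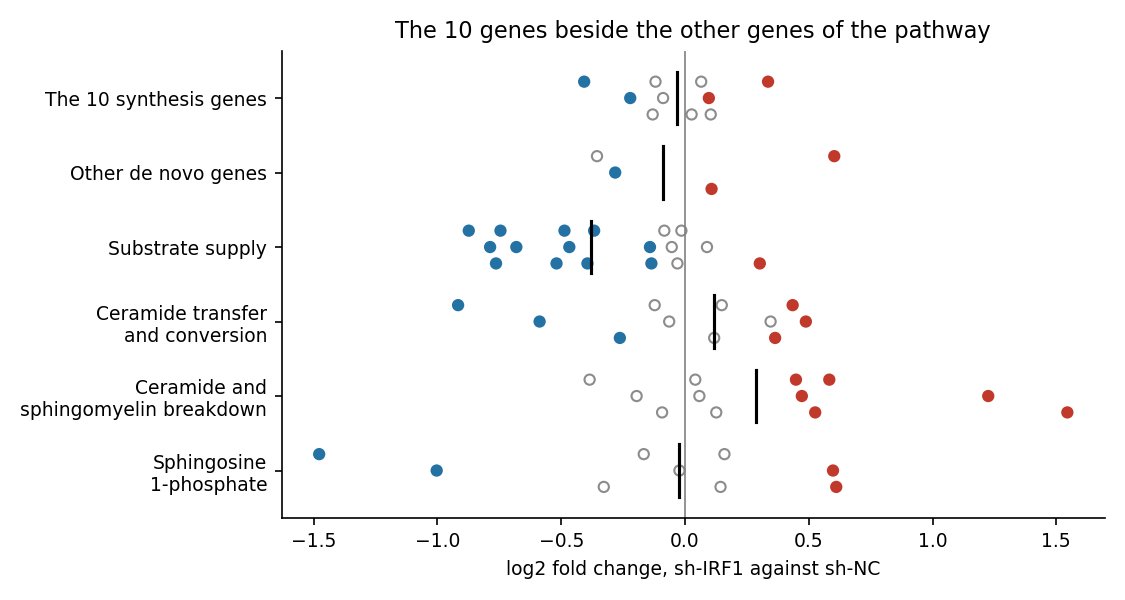
log2 fold change (horizontal axis) of every tested gene in the 10 synthesis genes and in 5 lists of neighbouring pathway genes. Red points were called higher, blue points called lower and open points not called, and the black bar is the median of the list. The synthesis genes lie between -0.41 and 0.34, while substrate supply has a median of -0.38 and breakdown a median of 0.29. The lists were chosen with earlier results of these data known.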

How the data were processed

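Total RNA from MV4-11 cells was sequenced in 2 sh-NC and 2 sh-IRF1 libraries. The submitters' processing notes name HISAT2 2.0.5 and hg38. The counting program, annotation and use of strand are not given in the sources used here. The deposited signal is, per gene, the authors' reads divided by 1 size factor per library. Undoing the size factors gave whole reads for all values (tolerance 0.001 read), and these were used where reads are named. The study's methods name DESeq2 and FPKM, and no FPKM values were used here.

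limma 3.58.1 (trend, robust) in R 4.3.3 was fitted to log2(value + 1) over 14120 genes, with Benjamini-Hochberg adjustment. edgeR 4.0.16 and DESeq2 1.42.0 on recovered reads, other scalings, filters and pseudocounts, a replicate block and the omission of each library were alternatives. The scripts were tested on simulated data. The members, pathway lists and marker lists were chosen with earlier results of these data known. Named were all members, IRF1 and, per list, genes called beyond 0.5 (log2), at most 5 a direction by smallest p, otherwise the called gene with the smallest p in a direction. TECR, ELOVL1, SMPD3, SETDB1, SGMS1-AS1, SPTLC3, CERS1, the markers and the shares of serine palmitoyltransferase and ORMDL genes were added after values were seen.

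Symbols matched 23456 of 23622 identifiers. Positions, lengths and exon overlaps came from GENCODE 44 (GRCh38), the build of the notes, and promoters from RefSeq (GRCh38.p14). Mitochondrial genes took 3.92% to 4.51% of a library.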

Additional observations from a re-analysis of the deposited data

How the results depend on the processing

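SPTSSA (log2 fold change from -0.45 to -0.36) and CERS6 (0.28 to 0.40) were called in all 15 alternative fits, DEGS1 (-0.26 to -0.18) in 14 and SPTLC2 (0.06 to 0.14) in 12. With DESeq2, 1 gene of the 10 was called higher in place of 2. With a single library left out, between 1 and 2 of the 10 were called higher and between 1 and 2 lower. At a minimum log2 fold change of 0.25 in place of 0.5, 2 of the 10 (SPTSSA and CERS6) were beyond it in place of 0. Of the genes not called, SPTLC1 and SGMS1 changed sign without sh-NC replicate 1 and CERS5 without sh-IRF1 replicate 1. With 1 library left out their log2 fold changes ran from -0.022 to 0.075 for SPTLC1, from -0.21 to 0.033 for SGMS1 and from -0.25 to 0.0069 for CERS5. What lies behind these changes of sign was not tested. No link between same-numbered libraries beyond the number is given in the sources used here. Their deviations from the group means had a correlation of -0.0154, which cannot show whether they were prepared together. With a replicate block 2 of the 10 were called higher and 2 lower, as without it. Scaling by total reads moved the median of all genes to 0.04. With 2 libraries a group, the spread of a single gene is poorly known and each call rests on the spread limma shares across genes (43 prior degrees of freedom). A change in total RNA per cell cannot be seen in these values.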
